A study of Mus musculus with 21 samples.

Results

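The binding of the glucocorticoid receptor (GR) to liver chromatin after 24 h of hypoxia was compared with that in normoxia, in mice that had all received dexamethasone. The members are the 6 libraries of these groups, out of 21 samples in the series, of which 18 had a peak list. Overlapping peaks of the 6 lists (1 bp or more in common) formed 4045 merged sites, and 1054 of these, 26.1%, were called in all 6 lists. Mice of the 24h hypoxia DEX group (n = 3) were kept at 7% O2 for 24 h, and mice of the normoxia DEX group (n = 3) stayed at 21% O2. Both groups were of the C57BL/6J strain and received dexamethasone (DEX, a synthetic glucocorticoid) at 10 mg/kg into the abdomen, 2 h before the liver was taken. Mice of the hypoxia group went back to 7% O2 for those 2 h. Age and sex are not given in the labels, and no allele is named. Chromatin of whole, snap-frozen liver was precipitated with the anti-GR antibody H300, so that the cell types of the liver were mixed. A change in the share of cells of a type and a change of binding within cells cannot be told apart in such samples. The groups of 6 h of hypoxia with DEX, and of both oxygen conditions with saline (PBS), served as side values.

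GR is a nuclear receptor that moves into the nucleus when it holds a glucocorticoid and binds DNA as a dimer at glucocorticoid response elements, or beside other transcription factors. In liver it is known for inducing genes of gluconeogenesis, amino acid breakdown and fat metabolism, and for restraining inflammation. Low oxygen stabilises the hypoxia-inducible factors (HIFs), transcription factors that switch cells towards glycolysis and that bind DNA at a short core. The comparison addresses whether the sites that GR binds after a glucocorticoid dose differ once the liver has been hypoxic for a day.

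The sequences under 4 bound promoters are shown because they stand for the outcomes met at promoters: a site with fewer tags in hypoxia, sites that did not pass the test, and a site called in normoxia lists only. They are the parts of the RefSeq promoter windows (build GRCm38.p6, the assembly of mm10) that lay under the receptor site, written 5′ to 3′ on the strand of the gene. Capitals mark a match to the glucocorticoid response element, that is, GNACA and TGTNC with 3 bases between them, searched on both strands. The first is the promoter of the non-coding gene Gm32287 at chr2:167777419-167777664 on the minus strand, under a site with fewer tags in hypoxia. The second is Mt1, the metal-binding protein metallothionein 1, at chr8:94178896-94179088 on the plus strand. The third is Slc10a6, a transporter of sulphated steroids, at chr5:103629444-103629653 on the minus strand. The fourth is Cxcl1, a chemokine that attracts neutrophils, at chr5:90891064-90891244 on the plus strand.
Gm32287: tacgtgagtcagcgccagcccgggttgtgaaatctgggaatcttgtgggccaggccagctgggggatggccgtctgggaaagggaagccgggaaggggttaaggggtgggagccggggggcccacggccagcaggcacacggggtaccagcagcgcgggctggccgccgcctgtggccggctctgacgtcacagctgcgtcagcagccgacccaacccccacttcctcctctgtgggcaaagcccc
Mt1: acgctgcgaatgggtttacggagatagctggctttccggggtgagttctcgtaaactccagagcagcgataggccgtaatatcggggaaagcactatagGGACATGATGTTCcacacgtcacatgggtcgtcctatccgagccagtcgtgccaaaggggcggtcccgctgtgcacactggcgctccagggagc
Slc10a6: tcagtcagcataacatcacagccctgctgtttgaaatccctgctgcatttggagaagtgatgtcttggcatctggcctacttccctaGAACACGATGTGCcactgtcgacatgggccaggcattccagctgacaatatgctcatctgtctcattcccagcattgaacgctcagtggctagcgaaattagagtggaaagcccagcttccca
Cxcl1: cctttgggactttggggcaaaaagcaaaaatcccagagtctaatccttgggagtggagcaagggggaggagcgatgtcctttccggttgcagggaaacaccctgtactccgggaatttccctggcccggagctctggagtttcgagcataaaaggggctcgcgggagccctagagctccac
The element was found in the stretches of Mt1 and Slc10a6 and not in those of Gm32287 and Cxcl1. Of the 39 promoter sites that did not pass the test only 8 had it, so Mt1 and Slc10a6 are not typical of that class.

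Fewer receptor peaks were called in livers after 24 h of hypoxia than in normoxic livers, but the lists of the replicates differed widely. The 24h hypoxia DEX lists held 1235, 1370 and 2287 peaks, and the normoxia DEX lists 3659, 2235 and 2516. The replicate 3 list of the hypoxia group was longer than the replicate 2 list of the normoxia group, so the groups overlapped. The means were 1631 ± 572 and 2803 ± 754 peaks (SD, n = 3 each), a log2 difference of -0.80 with a two-sided exact permutation p of 0.2. The share of a library's tags that fell in its peaks was 1.38%, 2.15% and 2.76% in 24h hypoxia DEX, against 3.68%, 2.85% and 2.85% in normoxia DEX. These groups did not overlap. The share averaged 2.10% ± 0.694 and 3.13% ± 0.478 (SD, n = 3 each), and the exact permutation p of 0.1 is the smallest that 3 against 3 libraries allow. Depth was 8849180 to 12642344 tags in 24h hypoxia DEX and 10476853 to 13181686 tags in normoxia DEX. The median tag count at the sites called in all 6 lists was 82.0, 127.7 and 132.1 in 24h hypoxia DEX, against 146.4, 138.4 and 125.8 in normoxia DEX. Tag counts are the authors' normalized tag counts, in tags per 10000000 tags of a library. Replicate 1 of 24h hypoxia DEX stood below the other libraries in this median, and the groups differed by -0.29 on the log2 scale (exact permutation p = 0.3). Without that library the log2 difference was -0.07.

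**Figure D1:**
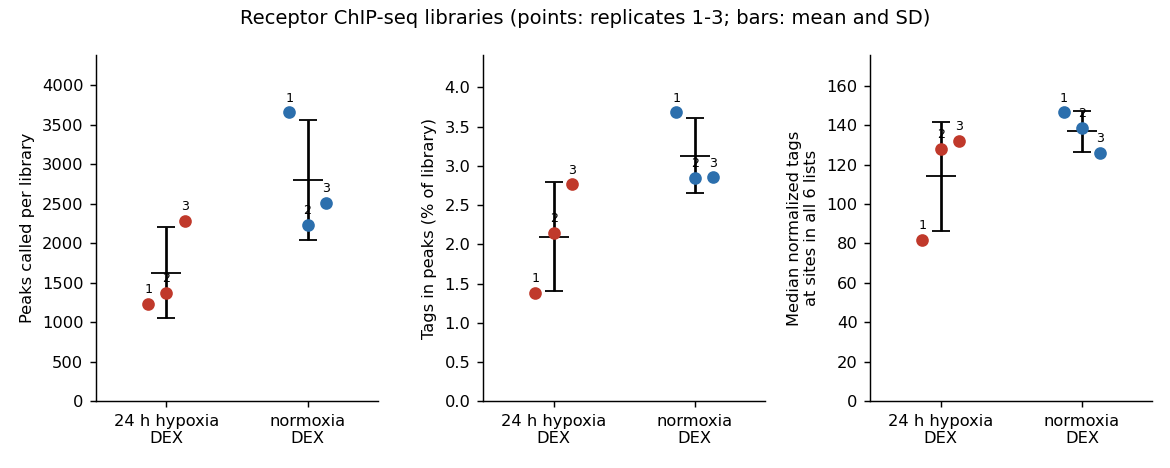
Number of peaks, share of tags in peaks (%) and median normalized tag count (tags per 10000000) at the 1054 sites called in all 6 lists, for 24 h hypoxia DEX on the left and normoxia DEX on the right. Points are libraries with their replicate numbers and bars are means with SD (n = 3 each); the shares of tags in peaks do not overlap between groups, and the numbers of peaks and the medians do.

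Marker genes of the liver's cell types were used to check the tissue. A receptor site was nearest to 8 of 10 hepatocyte markers, 1 of 10 Kupffer cell and leukocyte markers, 5 of 9 endothelial markers, 0 of 6 stellate cell markers and 1 of 5 cholangiocyte markers, beside 2431 of 21900 protein-coding genes (11.1%). Of the 4 tested sites at hepatocyte markers and the 3 at endothelial markers, 0 passed the test between 24h hypoxia DEX and normoxia DEX with limma, edgeR or DESeq2, and 0 had an unadjusted limma p under 0.05. Over all tested sites 1.52% were higher and 1.90% lower with limma, and 12.1% and 8.06% at the unadjusted threshold. Beside these shares, 0 of so few sites is no result about the markers. At Alb, the gene of serum albumin, the site 36014 bp away held 87.2, 144.6 and 114.7 tags in 24h hypoxia DEX, against 161.6, 112.6 and 75.9 tags in normoxia DEX. The groups overlapped there, and the log2 change was 0.32 ± 0.22 (SE). The 4 hepatocyte sites had log2 changes of 0.11 to 0.32. The 3 endothelial sites, at Flt1, Gpihbp1 and Vwf, had log2 changes of -0.44, -0.24 and -0.01. These are values after centring of the libraries, and without it every log2 change moves by -0.29. That puts all but the highest of the hepatocyte values below 0, so their sign depended on the centring. The difference between the marker lists was not tested.

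Detection was one-sided in the lists as deposited. Of the 2333 sites on any 24h hypoxia DEX list, 90, or 3.86%, were on no normoxia DEX list. Of the 3955 sites on any normoxia DEX list, 1712, or 43.3%, were on no 24h hypoxia DEX list. Sites on all 3 lists of 24h hypoxia DEX and no list of normoxia DEX numbered 6, which is 0.148% of all sites. Sites on all 3 lists of normoxia DEX and no list of 24h hypoxia DEX numbered 194, which is 4.80% of all sites. An exact test of detection at a single site cannot go below p = 0.1 with 3 against 3 libraries, so these are counts with no test. When each list was held to its 1235 best-scored peaks, the counts were 24 and 31. Without replicate 3 of 24h hypoxia DEX the count of normoxia sites was 607, without replicate 2 of normoxia DEX 385, and without replicate 3 of normoxia DEX 297. Leaving out a list loosens the rule, so the count could only rise and does not measure stability.

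The sites called in normoxia lists only were weak. Their median tag count in normoxia DEX was 61.7, with a range of 47.6 to 173 between sites, against a median of 136 in normoxia DEX at the sites called in all 6 lists. A minimum of 50 tags for a peak was assumed, which stood for 56.5 normalized tags in the shallowest of these libraries, replicate 2 of 24h hypoxia DEX. It was not a strict limit. In replicate 1 of that group peaks were called down to 41 normalized tags, where 50 tags stood for 42.7. In 66 of the 194 sites each normoxia DEX library held more than 56.5 normalized tags. After 6 h of hypoxia with DEX, 92 of the 194 sites were on at least 1 list and 102 were on none. Of all 4045 sites, 2239 were on at least 1 list at 6 h and 1806 on none, so absence at 6 h was common. Without DEX, 20 of the 194 were on any of the 6 PBS lists of the same oxygen conditions, beside 735 of all 4045 sites. The PBS libraries differed in depth, which is given further on.

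The most strongly bound of the normoxia-only sites lay in Dynlrb1, a light chain of the dynein motor (chr2:155243239-155243455). It held 134.3, 210.9 and 173.4 tags in normoxia DEX and was called in 0 of 3 lists of 24h hypoxia DEX and 0 of 3 lists of 6 h hypoxia with DEX. The next was in Acsl1, which joins long-chain fatty acids to coenzyme A, with 122.9, 151.8 and 92.9 tags in normoxia DEX and again no peak in either hypoxia group with DEX. After Acot11, with a mean of 109 tags, sites in or near Adamtsl2, a matrix protein, Gdf15, a stress-induced circulating factor, and Cdk15, a cyclin-dependent kinase, followed, with mean tag counts of 105 to 106 in normoxia DEX. The Acot11 site, in the gene of an acyl-CoA thioesterase, was on all 3 lists of 6 h hypoxia with DEX. It held 75.9, 74.4 and 175.7 tags in normoxia, 139.8, 259.8 and 217.9 tags at 6 h, and no peak was called at 24 h. The 2 other members of the 8 strongest were in Ttc39c, with a mean of 103 tags, and in Il1rapl1, with a mean of 102 tags and calls in 4 PBS lists. Among genes of the lists described further on, normoxia-only sites included ones near Foxo3, Cebpb, Tsc22d3, Sdsl, Acsl1, Pfkfb3, Il6ra, Orm1, Hp and Nr1i2. Hp, the haemoglobin-binding acute phase protein haptoglobin, had such a site 15 bp from the gene, with 103.2, 65.9 and 41.8 tags in normoxia DEX. By list, normoxia-only sites were 3 of 99 for classical glucocorticoid-induced genes and 1 of 36 for gluconeogenesis and amino acid breakdown. They were 1 of 40 for fatty acid genes, 1 of 24 for the HIF list and 0 of 22 for the clock list. They were 4 of 45 for acute phase, 2 of 34 for bile acid and 2 of 37 for liver transcription factor genes. The Hippo list had 0 of 15. Over all sites the share was 4.80%, and no difference from it was tested.

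Apart from a mitochondrial one, the 6 sites called only in 24h hypoxia DEX held few tags. The largest lay on the mitochondrial genome, at positions 15455 to 15697 beside CYTB. It held 955, 1671 and 1370 tags in 24h hypoxia DEX, but the input held 218 tags there. Its fold over input was 4.35, 7.64 and 6.40, where the caller required 4, and it was on all 6 PBS lists. Copies of mitochondrial sequence in the nuclear genome make reads there uncertain. The site in Rbms2, an RNA-binding protein (chr10:128145067-128145264), held 99.1, 102.8 and 111.5 tags in 24h hypoxia DEX and was on 1 of 3 lists at 6 h. The site in Gng7, a gamma subunit of heterotrimeric G proteins, held 70.1, 71.2 and 73.6 tags and was on 2 of 3 lists at 6 h. The other 3, in Tmem189 and Tsku and 240710 bp from Wdr11, averaged 60.7 to 65.0 tags.

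Tag counts were then tested at the 1054 sites called in all 6 lists, after each library had been centred on its median over these sites. Receptor tags were higher after 24 h of hypoxia at 16 sites, led by sites at Gadd45b, Parva and Gng7. They were lower at 20 sites, led by sites at Cdkal1, Stk4, Scarb1 and Cdk17. The 16 are 1.52% and the 20 are 1.90% of the sites tested, with limma and a Benjamini-Hochberg adjusted p under 0.05. Log2 changes of the sites that passed were 0.61 to 1.59 for the higher and -1.62 to -0.57 for the lower ones, beside a median of 0.08 over all sites tested. A site had to be called in every library, so sites that fell below the caller's threshold in hypoxia are not among them. The replicate numbers were taken to pair the libraries, although the labels state no pairing. With the number as a block 65 sites were higher (6.17%) and 48 lower (4.55%), including all 36. On the total tags, edgeR gave 12 higher (1.14%) and 28 lower sites (2.66%). With the 6 h libraries in the same limma fit, 28 of 934 sites were higher (3.00%) and 30 lower (3.21%).

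These counts depended on the scaling and on single libraries. Without centring, which moved the median of all sites to -0.22, the split was 2 higher and 20 lower, which held 2 of the 16 and 16 of the 20 named above. With the share of tags in peaks as a covariate, 1 higher site (Parva) and 2 lower sites (Stk4 and the site near Cebpb) passed. Leaving out replicate 1, 2 or 3 of 24h hypoxia DEX gave 4 and 9, 5 and 11, and 7 and 13 higher and lower sites. Leaving out replicate 1, 2 or 3 of normoxia DEX gave 58 and 54, 4 and 4, and 48 and 28. All 36 sites kept their direction under each of these settings. They were selected on these same libraries, so a kept direction is no independent evidence. In tags as deposited, the groups did not overlap at 6 of the 16 higher and at 20 of the 20 lower sites. Over all tested sites, 8 (0.759%) had every hypoxia library above every normoxia library in deposited tags, and 190 (18.0%) had every one below. After centring these were 176 (16.7%) and 105 (9.96%), and all 36 sites were among them, which their selection favoured.

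**Figure D2:**
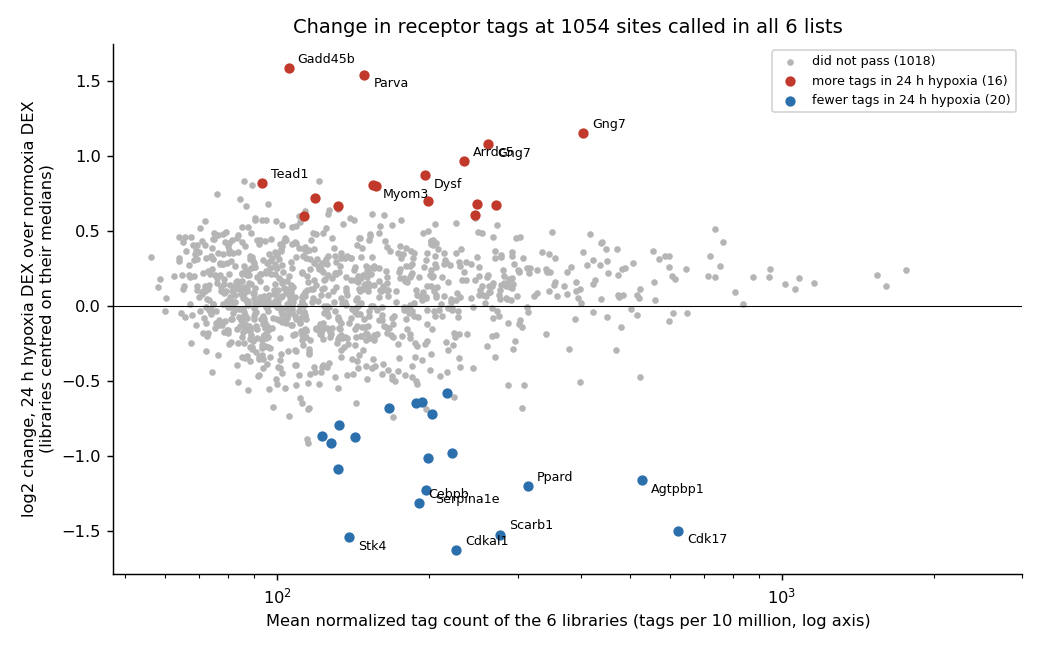
Log2 change of receptor tags, 24 h hypoxia DEX over normoxia DEX with libraries centred on their medians, against the mean normalized tag count of the 6 libraries (tags per 10000000, log axis) at 1054 sites. Red points are the 16 sites with more tags and blue points the 20 with fewer tags in 24 h hypoxia; the sites with the most tags, on the right, did not pass the test.

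The site with the largest increase was the one 2350 bp from Gadd45b, which encodes a small stress-response protein and is induced by glucocorticoids (chr10:80934453-80934655). It held 140.2, 151.4 and 157.4 tags in 24h hypoxia DEX, against 57.7, 64.0 and 61.2 tags in normoxia DEX. Every hypoxia library was above every normoxia library, the spread within groups was small, and the log2 change was 1.59 ± 0.19 (SE; limma adjusted p = 7.9e-04). Parva encodes alpha-parvin, an adaptor of focal adhesions. The site within it (chr7:112469989-112470194) held 159.0, 214.7 and 255.5 tags in 24h hypoxia DEX, against 108.5, 68.7 and 86.7 tags in normoxia DEX. The groups did not overlap, with a log2 change of 1.55 ± 0.18 (limma adjusted p = 7.9e-04).

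A pair of sites in Gng7, 3231 bp apart, rose as well. The first (chr10:80991501-80991698) held 453.8, 536.8 and 575.8 tags in 24h hypoxia DEX, against 268.6, 302.6 and 288.7 tags in normoxia DEX, with a log2 change of 1.15 ± 0.15. The second (chr10:80994732-80994933) held 282.9, 308.5 and 401.0 tags against 147.9, 198.5 and 230.7 tags in normoxia DEX, with a log2 change of 1.08 ± 0.21. Both pairs of groups were apart in deposited tags. The Gadd45b site was 57048 bp from the first of them, and the Gng7 site called only in 24h hypoxia DEX was 3104 bp from it. Another site in Gng7, at chr10:80962266-80962471, did not pass, with 106.8, 152.6 and 185.9 tags in 24h hypoxia DEX against 129.7, 182.3 and 175.7 tags in normoxia DEX. Its log2 change was 0.14 ± 0.18, so sites of the same gene differed in their change. This neighbourhood was chosen after its values were seen.

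The remaining higher sites changed by less. The site 1028 bp from Arrdc5, an arrestin-domain gene, held 217.1, 315.3 and 338.5 tags in 24h hypoxia DEX against 161.6, 184.2 and 191.2 tags in normoxia DEX (log2 change 0.97 ± 0.15). There was no overlap. Near Tead1, whose product binds DNA at the end of the Hippo cascade, the site 174728 bp from that of Parva held 81.2, 105.1 and 147.1 tags in 24h hypoxia DEX against 91.0, 65.9 and 69.7 tags in normoxia DEX. The groups overlapped in deposited tags and not after centring, and the log2 change was 0.82 ± 0.18. Dysf, a gene of membrane repair, had a site with a log2 change of 0.87, and Myom3, a sarcomere protein, one of 0.81. The sites of Zc3h3, Sox2 and Gm51791 had log2 changes of 0.80, 0.72 and 0.68. The one assigned to Sox2 lay 467180 bp from it, so the gene is only the nearest name. Its call was lost in 10 of 19 alternative settings, among them edgeR (adjusted p = 0.060). The calls at Dysf, Zc3h3 and Gm51791 were lost in 6 of 19, that at Tead1 in 6 of 18 and that at Myom3 in 5 of 19. Arrdc5 lost its call in 2 of 19. The 4 others past the test were nearest to Rab7, Chrdl2, Tox and Grik3, with log2 changes of 0.61 to 0.68. With edgeR the sites of Tox (adjusted p = 0.051) and Grik3 (adjusted p = 0.064) did not pass.

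Among the lower sites, the largest change was in Cdkal1, which modifies a transfer RNA (chr13:29576241-29576452). It held 55.5, 111.9 and 127.3 tags in 24h hypoxia DEX, against 283.0, 367.5 and 411.0 tags in normoxia DEX. The groups were far apart, with a log2 change of -1.62 ± 0.20 (limma adjusted p = 7.9e-04). Stk4 encodes the Hippo kinase MST1, and its site (chr2:164131477-164131704) held 53.0, 71.2 and 55.4 tags in 24h hypoxia DEX against 170.7, 186.1 and 298.0 tags in normoxia DEX. All hypoxia libraries were lower, and the log2 change was -1.54 ± 0.26 (limma adjusted p = 0.0071). Cdk17, a cyclin-dependent kinase, held the lower site with the most tags (chr10:93198475-93198688). It had 200.0, 264.4 and 370.2 tags in 24h hypoxia DEX, against 635.7, 1014 and 1255 tags in normoxia DEX. The lowest normoxia library was above the highest hypoxia library, and the log2 change was -1.50 ± 0.25 (limma adjusted p = 0.0071).

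Scarb1, Ppard and Srebf2, which belong to the lists of lipid and cholesterol genes described further on, were also lower. Scarb1 encodes the receptor for high-density lipoprotein, and its site (chr5:125297359-125297565) held 69.2, 168.4 and 146.3 tags in 24h hypoxia DEX against 486.3, 426.7 and 360.0 tags in normoxia DEX. Again no library overlapped, with a log2 change of -1.52 ± 0.17. Ppard encodes a fatty acid-sensing nuclear receptor, and its site (chr17:28272320-28272546) held 88.9, 213.6 and 215.9 tags in 24h hypoxia DEX against 374.8, 546.0 and 446.7 tags in normoxia DEX. The log2 change there was -1.20 ± 0.20, again with no overlap. Srebf2, the master transcription factor of cholesterol synthesis, had 53.8, 102.8 and 66.4 tags in 24h hypoxia DEX against 213.9, 212.9 and 140.9 tags in normoxia DEX (log2 change -1.08 ± 0.20). Every hypoxia library was below every normoxia library.

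The rest of the lower sites lay at genes of varied roles. Agtpbp1, an enzyme that trims glutamates from tubulin, had a site 2761 bp away with 141.9, 366.1 and 397.9 tags in 24h hypoxia DEX against 713.9, 824.7 and 719.9 tags in normoxia DEX (log2 change -1.16 ± 0.20). The groups were apart, although replicate 1 of the hypoxia group was well below its 2 companions. The site in Ahr, the xenobiotic receptor that shares its dimer partner with the HIFs, held 71.8, 153.7 and 182.7 tags in 24h hypoxia DEX against 352.0, 304.5 and 266.3 tags in normoxia DEX (log2 change -0.98 ± 0.17). Itsn1, an endocytic scaffold, and Map3k1, a kinase upstream of JNK, had log2 changes of -1.01 and -0.91. Serpina1e, an alpha-1-antitrypsin gene, had a site 4917 bp away with a log2 change of -1.22. It belongs to a cluster of near-identical copies, so reads there may be misassigned. The 8 other lower sites were nearest to Ptpn1, Tpst2, Sdr42e1, Dapk1, Wbp1l, Sbf2, Aldh16a1 and Pitpnm2, with log2 changes of -0.87 to -0.57. The input of either oxygen condition held at most 4.40 normalized tags at any of the 36 sites.

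**Figure D3:**
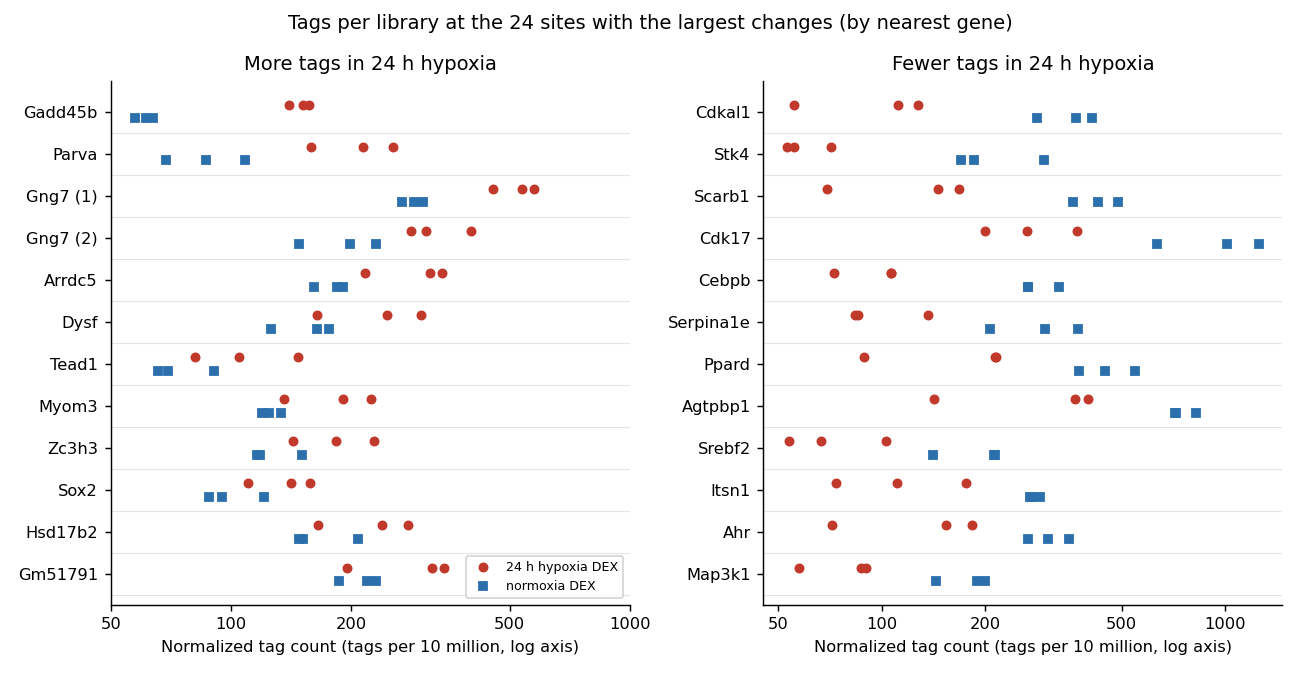
Normalized tag count (tags per 10000000, log axis) in each library at the 12 sites with the largest increases (left) and the 12 with the largest decreases (right), named by the nearest gene. Red circles are 24 h hypoxia DEX and blue squares normoxia DEX (3 libraries each); the colours do not overlap at any of the 12 decreased sites and do overlap at 6 of the increased ones.

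The most strongly bound sites did not pass the test. The site with the most tags, 85990 bp from Ptpn1 (chr2:167844664-167844856), held 1328, 1678 and 2243 tags in 24h hypoxia DEX against 1580, 1735 and 2019 tags in normoxia DEX. The groups overlapped and the log2 change was 0.25 ± 0.18. The next, in Klf13, a zinc finger transcription factor, held 1123, 1574 and 1924 tags in 24h hypoxia DEX against 1542, 1638 and 1869 tags in normoxia DEX (log2 change 0.14 ± 0.16). The sites near Armc12, in Midn and near Usp24 had log2 changes of 0.21, 0.16 and 0.19, with overlapping groups.

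The interval between Cebpb and Ptpn1 on chromosome 2 held both kinds of site. Cebpb encodes a transcription factor of the liver's metabolic and acute phase genes, and Ptpn1 a phosphatase of the insulin receptor. The site that covers the Gm32287 promoter printed above, 87114 bp from Cebpb, held 72.6, 106.2 and 106.8 tags in 24h hypoxia DEX against 266.3, 266.3 and 327.4 tags in normoxia DEX. The groups were apart, with a log2 change of -1.31 ± 0.16 (limma adjusted p = 7.9e-04). The site beside it (chr2:167781658-167781866) held 60.7, 91.5 and 86.2 tags against 156.3, 138.4 and 121.5 tags in normoxia DEX, and did not pass (log2 change -0.52 ± 0.15, limma adjusted p = 0.085, and 0.043 with the replicate block). Another site, at chr2:167775361-167775591, was called in normoxia lists only, with 72.8, 88.8 and 107.6 tags. A site 53636 bp further on (chr2:167831055-167831294) was lower, with 70.9, 84.8 and 108.4 tags in 24h hypoxia DEX against 223.8, 213.8 and 154.0 tags in normoxia DEX (log2 change -0.87 ± 0.17). The other 6 tested sites of the interval had log2 changes of -0.10 to 0.25 and did not pass. The interval was chosen after its values were seen.

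**Figure D4:**
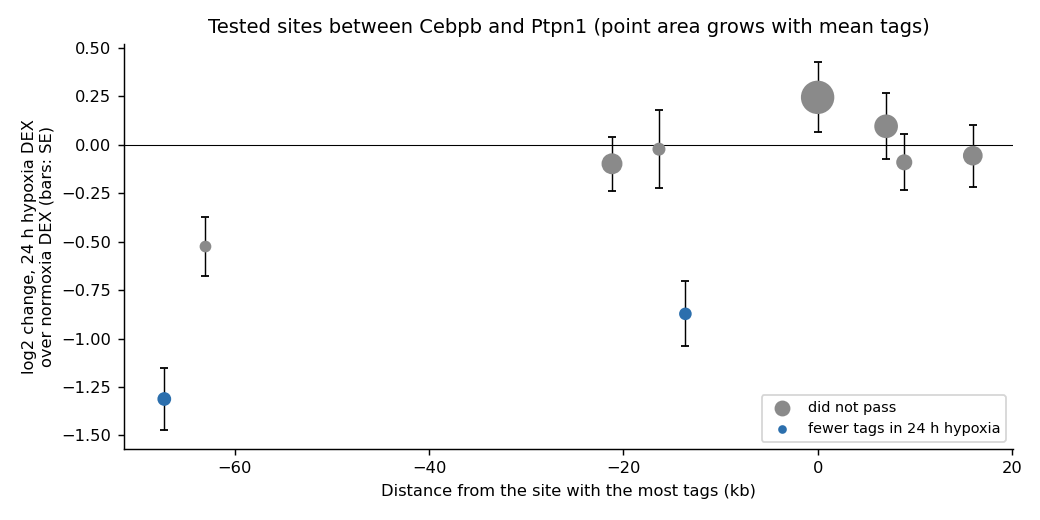
Log2 change of receptor tags (24 h hypoxia DEX over normoxia DEX, bars are SE) at the tested sites between Cebpb and Ptpn1, against the distance in kb from the site with the most tags; Cebpb lies to the left. Point area grows with the mean tag count; the 2 sites with fewer tags in 24 h hypoxia (blue) had log2 changes of -1.31 and -0.87, and the site with the most tags, at distance 0, one of 0.25.

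Another neighbourhood, also chosen after its values were seen, held sites on which limma made calls in opposite directions. The site in Sdr42e1, a short-chain dehydrogenase gene, held 72.6, 94.9 and 85.4 tags in 24h hypoxia DEX against 210.1, 194.7 and 137.8 tags in normoxia DEX (log2 change -0.79 ± 0.18). The site in Hsd17b2, which inactivates oestradiol and testosterone, lay 58294 bp away. It held 165.8, 278.0 and 239.7 tags in 24h hypoxia DEX against 148.7, 209.0 and 151.7 tags in normoxia DEX (log2 change 0.70 ± 0.16). The groups were apart in Sdr42e1 and overlapped in deposited tags in Hsd17b2. The call at Hsd17b2 was lost in 10 of 19 alternatives, among them edgeR (adjusted p = 0.066) and the limma fit with the 6 h libraries (adjusted p = 0.083), with adjusted p-values of 0.0025 to 0.65 over all 19.

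The values at 6 h of hypoxia, from 3 further DEX libraries of 5772670 to 11441406 tags, were set beside those at 24 h. Of the 1054 sites, 934 were also on all 3 lists at 6 h and could be tested between the times, and these held all 16 higher and 19 of the 20 lower sites. Between 24 h and 6 h, 4 sites (0.428%) were higher and 13 (1.39%) lower with limma, of which 1 was among the 16 and 4 among the 19. At the Gm32287 promoter site near Cebpb the tags were 266.3, 266.3 and 327.4 in normoxia, 208.0, 346.5 and 247.4 at 6 h, and 72.6, 106.2 and 106.8 at 24 h. The 6 h libraries overlapped with normoxia and not with 24 h. The log2 difference of 24 h from 6 h was -1.21 (limma adjusted p = 0.0023), and that of 6 h from normoxia was -0.11 (adjusted p = 0.85). At Cdkal1 the tags were 283.0, 367.5 and 411.0 in normoxia, 292.8, 318.7 and 215.0 at 6 h, and 55.5, 111.9 and 127.3 at 24 h. Its 24 h libraries differed from those at 6 h by -1.28 on the log2 scale (limma adjusted p = 0.0033). Its 6 h libraries differed from normoxia by -0.35 (limma adjusted p = 0.44), and the 6 h value of 215.0 was below every normoxia library. Sdr42e1 and Wbp1l also had fewer tags at 24 h than at 6 h, by log2 differences of -0.70 and -0.68. Hsd17b2 had more, with 198.4, 142.0 and 93.2 tags at 6 h and a log2 difference of 24 h from 6 h of 0.96 (limma adjusted p = 0.046).

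Other sites already differed from normoxia at 6 h. The Gadd45b site held 57.7, 64.0 and 61.2 tags in normoxia, 151.2, 299.7 and 107.5 at 6 h, and 140.2, 151.4 and 157.4 at 24 h. Both hypoxia groups lay above normoxia there. The log2 change of 6 h from normoxia was 1.49 (limma adjusted p = 5.7e-04), and 24 h differed from 6 h by a log2 value of 0.09 (limma adjusted p = 0.84). At Parva the 6 h libraries held 222.9, 344.7 and 159.9 tags, a log2 change of 1.43 from normoxia (limma adjusted p = 2.0e-04), and 24 h differed from 6 h by 0.11. At Ppard the order was 374.8, 546.0 and 446.7 tags in normoxia, 143.3, 178.4 and 95.2 at 6 h, and 88.9, 213.6 and 215.9 at 24 h. Every library of both hypoxia groups was below every normoxia library. The log2 change of 6 h from normoxia was -1.73 (limma adjusted p = 2.0e-04), and the difference of 24 h from 6 h was 0.52 (limma adjusted p = 0.19). Scarb1, with 133.7, 285.8 and 178.9 tags at 6 h, had a log2 change of -1.14 from normoxia then (limma adjusted p = 0.0058), and 24 h differed from 6 h by -0.40 (limma adjusted p = 0.31). A p that misses the threshold does not show that the times were alike. The comparisons of 6 h and of 24 h with normoxia share the normoxia libraries. Those of 24 h with normoxia and with 6 h share the 24 h libraries. Sites selected by the first are therefore favoured to differ in the same direction in the second.

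**Figure D5:**
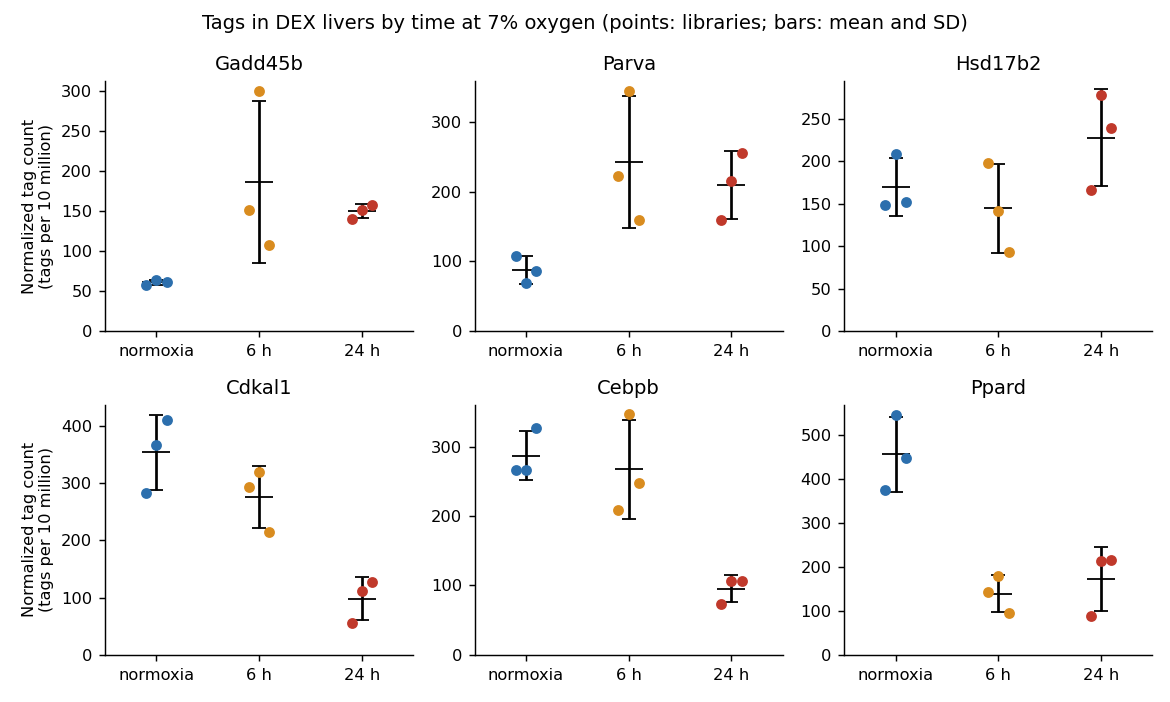
Normalized tag count (tags per 10000000) in livers of DEX-treated mice (normoxia, 6 h of hypoxia, 24 h of hypoxia), at 6 sites named by the nearest gene. Points are libraries and bars are means with SD (n = 3 each). At Cdkal1 and the site near Cebpb the 24 h libraries lie below all others, whereas Gadd45b, Parva and Ppard lie apart from normoxia at both times.

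Binding without DEX was used as background. Of the 1054 tested sites, 439 (41.7%) were on at least 1 of the 6 PBS lists of the same oxygen conditions, and 64 were on all 6. The share was 5 of 16 for the higher sites and 7 of 20 for the lower sites, and 0 of the 36 were on all 6 PBS lists. These PBS libraries held 8667179 to 43645787 tags, against at most 13181686 in the 6 DEX libraries, so a deep one could call weaker sites. The lower sites of Srebf2, Sdr42e1, Sbf2 and Aldh16a1 were called without DEX only in normoxia PBS replicate 1. They held 18.3, 20.2, 17.4 and 19.2 tags there, so these shares depend on depth and on a single library. Higher sites lay inside a gene in 8 of 16 cases and lower sites in 16 of 20, beside 53.4% of all tested sites.

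Sites on promoters were few in each class. A site covered at least 100 bases of a RefSeq promoter window in 0 of 16 higher sites, 1 of 20 lower sites, 9 of 194 normoxia-only sites and 39 of 1018 tested sites that did not pass. The 1 lower site is that of Gm32287. Mt1 held 137.6, 178.5 and 183.5 tags in 24h hypoxia DEX against 234.4, 185.2 and 220.6 tags in normoxia DEX. The groups were apart in deposited tags but not after centring, and the log2 change was -0.07 ± 0.15 (limma adjusted p = 0.83). Slc10a6 held 73.5, 113.0 and 130.5 tags in 24h hypoxia DEX against 140.3, 88.8 and 94.4 tags in normoxia DEX, with overlapping groups and a log2 change of 0.25 ± 0.18. The Cxcl1 promoter site held 62.2, 70.6 and 77.4 tags in normoxia DEX and was on no list of 24h hypoxia DEX. The element lay in 127 of 32536 RefSeq promoters, 0.39%, counting the 250 bases before the start. It lay in 15 of 184 promoters under a site of any class, 8.15%. By class it was in a promoter under 0 of the 1 lower site, 0 of the 9 normoxia-only sites and 8 of the 39 sites that did not pass. The shorter element AGAACA, 1 arm of it, lay in 23.4% of the 184 windows and 16.0% of all promoters, and the HIF core ACGTG in 18.5% and 16.7%, each counted on both strands. The ACGTG core was in a promoter under the 1 lower site, 4 of the 9 normoxia-only sites and 4 of the 39 sites that did not pass. A match is a description of the letters only.

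Gene lists of pathways that GR and hypoxia are known for were read against the share of all sites that passed, 1.52% higher and 1.90% lower, and against the median log2 change of 0.08 over all sites. Each site counts for its nearest protein-coding gene, and calls are those of limma. In the lists with 0 limma calls in both directions, an unadjusted p under 0.05 was met by 0 higher and 1 lower site for gluconeogenesis and amino acid breakdown and by 1 and 0 for the HIF list. It was met by 0 and 0 for the clock list and by 2 and 1 for the acute phase list, of 15, 5, 9 and 16 tested sites, beside 12.1% higher and 8.06% lower of all sites at that threshold. There edgeR and DESeq2 each called 1 lower site of the first list (Sdsl) and 0 of the others. The 26 classical glucocorticoid-induced genes had 53 tested sites at 24 genes, with 1 higher (Gadd45b), 1 lower (near Cebpb) and a median log2 change of 0.10. Zfp36, which destabilises inflammatory messenger RNAs, held 736.7, 1120 and 1156 tags in 24h hypoxia DEX against 977.1, 1015 and 1383 tags in normoxia DEX at its strongest site, 265 bp away. The groups overlapped and the log2 change was 0.12 ± 0.18. The strongest sites of Zbtb16, Cdkn1a and Foxo1 had log2 changes of 0.25, 0.20 and 0.25 and did not pass. With the replicate block, sites of Fkbp5 and Zbtb16 were also higher, and sites of Errfi1 and a second one near Cebpb also lower. That makes 3 higher and 3 lower of the 53, beside 6.17% higher and 4.55% lower of all sites with the block. Block calls in the lists that follow are read against the same shares. The pairing was chosen from these same values, so calls with the block are no further support.

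Of the 3 metabolic lists, 2 held lower sites. Gluconeogenesis and amino acid breakdown (19 genes) had 15 tested sites at 11 genes, with 0 higher, 0 lower and a median log2 change of -0.05. Its strongest site, in Sdsl, a serine dehydratase-like enzyme, held 223.0, 337.9 and 317.2 tags in 24h hypoxia DEX against 440.0, 528.8 and 538.0 tags in normoxia DEX. The groups were apart, but the log2 change of -0.50 ± 0.15 did not pass (limma adjusted p = 0.089, and 0.024 with the replicate block). Sites of Cps1, Hpd and Gpt had log2 changes of 0.28, 0.30 and -0.03. Fatty acid oxidation, ketone and lipid droplet genes (24 genes) had 11 tested sites at 8 genes, with 0 higher, 1 lower (Ppard) and a median of 0.02. The strongest sites of Plin4, a perilipin of lipid droplets, Lpin1, a phosphatidate phosphatase, and Ppara, the fasting-state nuclear receptor, had log2 changes of 0.02, 0.37 and 0.07. With the block, Bdh1, an enzyme of ketone metabolism, was higher as well, at 0.49, and a second site of Ppard lower, at -0.67. Bile acid, cholesterol and xenobiotic genes (20 genes) had 12 tested sites at 8 genes, with 0 higher, 2 lower (Scarb1 and Srebf2) and a median of -0.0045. Sites of Nr1i2, Nr0b2 and Insig2 had log2 changes of -0.06, -0.02 and 0.12.

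The HIF target and oxygen-sensing list (26 genes) had only 5 tested sites, at 5 genes, with 0 higher, 0 lower and a median log2 change of 0.26. The strongest, in Hif3a, a HIF alpha subunit, held 396.5, 622.7 and 777.5 tags in 24h hypoxia DEX against 506.0, 546.0 and 738.5 tags in normoxia DEX (log2 change 0.26 ± 0.19). The groups overlapped. Bnip3, a mitophagy receptor, had a site with a log2 change of 0.46 ± 0.15 that passed only with the block (limma adjusted p = 0.027, and 0.13 without it). Pfkfb3 and Epas1 had log2 changes of 0.29 and 0.03.

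Clock genes (19) had 9 tested sites at 7 genes, with 0 higher, 0 lower and a median log2 change of 0.15. Per1, a core clock repressor and a direct GR target, held 312.8, 392.1 and 499.1 tags in 24h hypoxia DEX against 403.6, 370.3 and 553.5 tags in normoxia DEX, with overlapping groups. Acute phase and inflammation genes (24) had 16 tested sites at 12 genes, with 0 higher, 0 lower and a median of 0.03. Nfkbia, the inhibitor of NF-kappaB, had 301.7, 403.4 and 492.0 tags in 24h hypoxia DEX against 496.9, 466.7 and 548.1 tags in normoxia DEX (log2 change -0.07 ± 0.14). Lcn2, Lbp and Orm1 had log2 changes of 0.36, -0.21 and 0.18. Liver transcription factors (16) had 7 tested sites at 6 genes, with 0 higher, 1 lower (near Cebpb) and a median of 0.07, and the strongest site, of Rxra, had a log2 change of 0.07. The list of Hippo pathway and cell adhesion genes (20) was drawn up with the calls at Parva, Tead1 and Stk4 known, so its count of 2 higher and 1 lower among 7 tested sites at 5 genes is no independent evidence. Sites of its other strongly bound genes, Lpp and Amotl2, had log2 changes of 0.16 and -0.19.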

How the data were processed

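Reads were trimmed with Trimmomatic and aligned with BWA 0.7.17 to mm10, and SAMtools 1.10 was used, per the submitters' processing notes. HOMER called the peaks of each library alone against the input of its oxygen condition, per the file headers, with 4-fold enrichment and a Poisson p of 1e-04. The signal is the authors' deposited normalized tag count (per 10000000 tags). The deposited total tags per peak are counts, the input tags are a signal scaled to the library, per the file headers, and the fold over input, as deposited, is a ratio. The authors' peak score ranked peaks within a list.

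Peaks overlapping by 1 bp were merged and named by the nearest protein-coding gene of GRCm38.p6. At sites called in all 6 lists, log2 normalized tags, centred on each library's median, were tested with limma 3.58.1 (R 4.3.3) with a mean trend and Benjamini-Hochberg adjustment. The total tags turned out to be counts, but the normalized tags stayed the main measure, and edgeR 4.0.16 and DESeq2 1.42.0 were run on the total tags as alternatives. In 3 libraries (replicate 3 of 24h hypoxia DEX, replicates 1 and 2 of normoxia DEX) total and normalized tags differed by up to 5.44%. Library values were compared with exact permutation tests. Replicates are biological per the series' design text. Same-numbered libraries deviated together (Pearson r of 0.30, 0.17 and 0.47 over sites), so the numbers were taken to pair them. Replicate 2 of 24h hypoxia DEX had an r of 0.18 with replicate 1 of normoxia DEX, above its 0.17 with replicate 2. The labels state no pairing, and it was chosen from the same values that were then tested with the block. The fit was tested on simulated data.

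The sites named are the 12 largest changes each way past the test, the 8 highest-tag sites of each one-sided detection class, the 5 sites with the most tags, and for each list up to 4 genes with the most tags and any past the test. Members and lists were chosen with earlier results of these data known. The PBS lists after 6 h of hypoxia were not used.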

Additional observations from a re-analysis of the deposited data

Results flagged for a closer look

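At 5 of the sites that changed between 24h hypoxia DEX and normoxia DEX, the 24 h libraries also differed from those at 6 h of hypoxia with DEX (limma over 934 sites). The sites had been selected on the same 24 h libraries, which favours a difference in the same direction. The log2 differences of 24 h from 6 h were -1.28 at Cdkal1, -1.21 at the site near Cebpb, -0.70 at Sdr42e1, -0.68 at Wbp1l and 0.96 at Hsd17b2. In that fit of all 9 DEX libraries Hsd17b2 did not pass between 24h hypoxia DEX and normoxia DEX (adjusted p = 0.083), nor did it with edgeR on the 6 libraries (adjusted p = 0.066). The groups of 3 libraries were not examined for single outlying values.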

How the results depend on the processing

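Of the sites called in all 6 lists, 16 had more and 20 fewer tags in 24h hypoxia DEX as reported. More tags were found at 2 sites without centring, 28 with all 9 DEX libraries in the fit and 1 with the share of tags in peaks as covariate, which left 2 with fewer. DESeq2 on total tags gave 35 with fewer. With the replicate block, which pairs the libraries by number, 65 had more and 48 fewer. Leaving out each library in turn gave 4 to 58 sites with more and 4 to 54 with fewer tags. All 36 reported sites kept their direction in every setting run that tested them. The settings re-used the libraries on which the sites were selected, so this is no independent evidence. The number of sites on all 24h hypoxia DEX lists and no normoxia DEX list ranged from 6 to 11 when a library was left out, and the reverse number from 196 to 607. Leaving out a list loosens the rule, so these ranges do not measure stability. With each list held to the length of the shortest, the numbers were 24 and 31. The log2 difference in peaks per library was -0.80 as reported; no alternative for it, the share of tags in peaks or the median tag count turned its direction. Their exact p over 3 pairs was 0.25, the smallest that 3 pairs allow, for the peaks and the share, so these tests say nothing of stability. The assumed minimum of 50 tags, which some called peaks fell below, stood for up to 56.5 normalized tags. Absence from a list is not absence of binding, below that level or above it, as the caller also required 4-fold enrichment.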
